A study of Oncorhynchus mykiss with 60 samples.

Results

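Cell-cell junctions and keratin filaments turn a ball of cleaving blastomeres into a tissue, and 39 rainbow trout (Oncorhynchus mykiss) genes that encode their parts were followed along the animal-vegetal axis of the egg and early embryo. A feature of the count table was taken when its own symbol, or the symbol of its zebrafish ortholog in the authors' ortholog table, was that of a numbered cadherin, an alpha- or delta-catenin, a plakoglobin, a desmoplakin, an envoplakin, a periplakin, a claudin, a zonula occludens protein, epcam or a numbered keratin. Of 23471 features, 39 met the rule, 10 by their own symbol and 29 through the zebrafish ortholog only. They carry 27 distinct symbols, of which 8 belong to 2 copies and 2 to 3 copies. By symbol there are 5 cadherins, 12 catenins and plaque proteins, 10 claudins, 5 keratins, and 7 tight junction scaffolds and epcam genes. Copies are named here by symbol and locus identifier.

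The libraries come from TOMO-seq, in which an egg or embryo is cut into slices and each slice is sequenced. Untreated material of 4 ages was cut into 5 sections, from A at the animal pole, where the blastodisc lies, to E at the vegetal pole, with 3 labelled biological replicates per age. The ages are 0 hours post fertilization (hpf), whose labels name both the non-fertilized egg and the freshly fertilized egg, 1 hpf, whose labels name both the 1-cell stage and early cleavage, 1 day post fertilization (dpf; early blastula) and 3 dpf (mid-blastula). The count table holds 3 replicates at 0 hpf, 1 dpf and 3 dpf and 2 replicates, numbered 1 and 3, at 1 hpf, which makes 55 libraries. The 1 hpf replicate 2 was not analysed here. Parents, clutches and the number of embryos per replicate are not in the labels. A p-value here therefore reflects only how far these samples spread, and part of that spread may be technical. Each library was made from the same mass of RNA, so a value is a share of the reads of its section, and fewer cells with a transcript and less of it per cell cannot be told apart.

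Library totals ran from 1090235 to 14461008 counts. Levels are CPM, the share of a library's counts on a fixed common scale, after TMM scaling, which adjusts library sizes so that most genes have no systematic shift. A library with a count of 0 allows up to 3 counts, or 0.207 to 2.752 CPM depending on its depth, and this covers counting error only. Of the 39 genes, 26 had a count in all 55 libraries. For some of the genes replicate 3 lay apart from replicates 1 and 2 at 1 dpf and 3 dpf, and from replicate 1 at 1 hpf, and their values are given replicate by replicate. The part of this in the results was not tested. As a check of the labels, 17 genes of an egg and oocyte list, all detected, summed to between 1498 and 1729 CPM in section A at 0 hpf and to between 662 and 803 CPM there at 3 dpf. In section E they summed to between 3486 and 3916 CPM at 0 hpf and to between 3415 and 4964 CPM at 3 dpf.

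In adherens junctions, classical cadherins bind their like on the next cell, and catenins join them to actin. Desmosomes tie keratin filaments to the membrane through plakoglobin and the plakins desmoplakin, periplakin and envoplakin, while claudins seal tight junctions and zonula occludens proteins scaffold them. In the zebrafish blastula the outermost cells form the enveloping layer, a flat epithelium that expresses keratins and claudins, and the deep cells under it are held together by E-cadherin. The egg supplies transcripts for several of these proteins before the embryo transcribes its own genes.

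**Figure D1:**
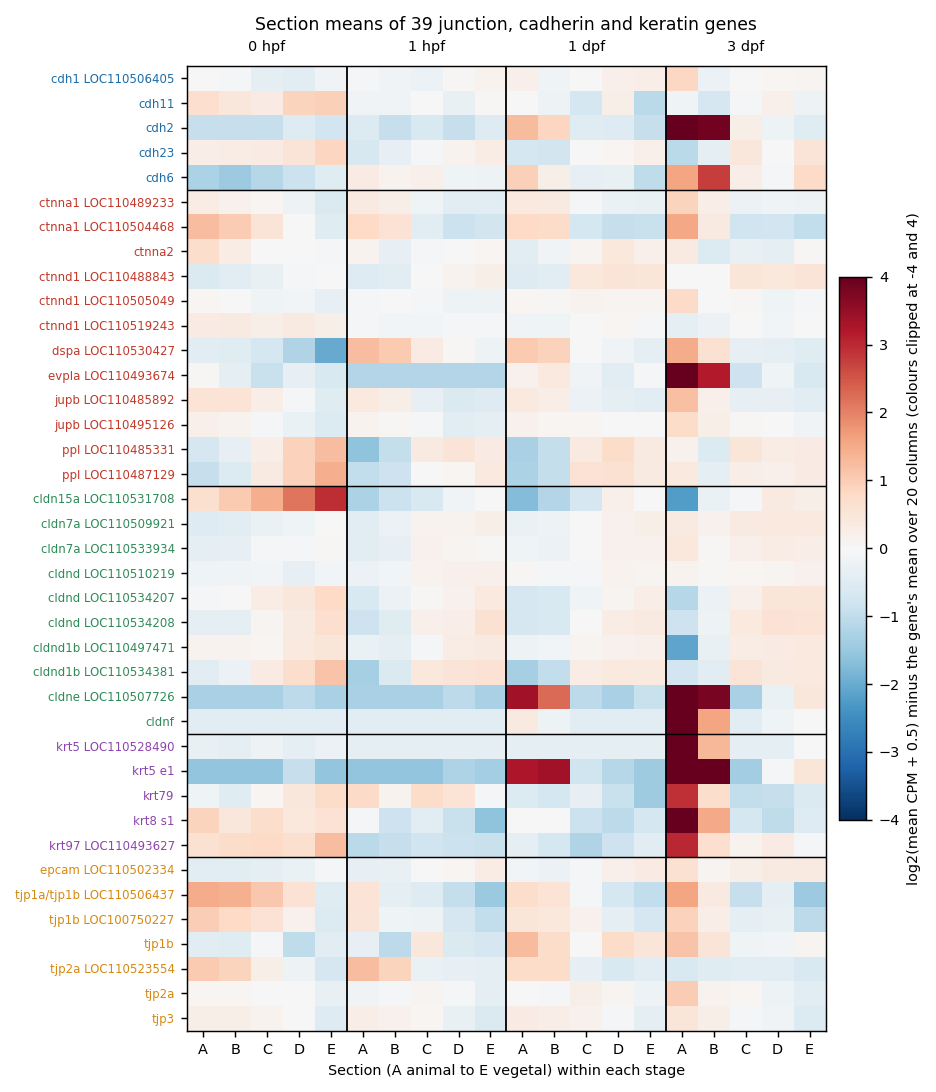
Section means of all 39 genes (rows, in 5 classes) in sections A to E of 4 ages (columns), as log2(mean CPM + 0.5) minus the gene's own mean over the 20 columns, with colours clipped at -4 and 4. The darkest red cells are at 3 dpf in sections A and B and belong to cdh2, evpla, cldne, cldnf and the keratins, while cldn15a is highest in section E at 0 hpf.

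The genes were divided between the poles in the egg, and at 3 dpf more of those that passed the filter on low counts were called higher in A than in E. In the test of section A against section E (edgeR's quasi-likelihood test, Benjamini-Hochberg adjusted p under 0.05 over all genes), 25 of the 31 genes that passed the filter on low counts were called at 0 hpf, 12 higher in A and 13 higher in E, where 64.0% of all genes tested were called, 32.0% higher in A and 32.0% higher in E. At 1 hpf 22 of 32 were called, 9 higher in A and 13 in E, against 52.5% of all genes (27.6% and 24.9%). At 1 dpf 24 of 34 were called, 13 higher in A and 11 in E, against 63.4% (32.9% and 30.5%). At 3 dpf 28 of 37 were called, 20 higher in A and 8 in E, against 72.4% (38.1% and 34.3%). A test over all 5 sections called 21, 20, 26 and 28 of them unevenly spread at the 4 ages, where 56.1%, 46.1%, 62.4% and 69.8% of all genes were called.

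The median difference of A minus E of the genes that passed was -0.02, -0.05, 0.13 and 0.91 on the log2 scale at 0 hpf, 1 hpf, 1 dpf and 3 dpf, beside -0.01, 0.04, 0.05 and 0.08 over all genes tested. At 1 dpf cdh2, cdh6, cldne and krt5 e1 entered the test through their counts in section A or B. At 3 dpf cdh2, evpla, cldne, cldnf, both krt5 genes and krt79 did so, while cldn15a entered through sections B to E of replicate 3. At 0 hpf ctnna2 entered through sections A and B, and krt79 through sections C to E. These genes passed where they were high, so their calls are no support for a difference. The counts and medians describe the genes that passed and support nothing beyond them. Scaling by library size alone, without TMM, moves the median of all genes to 0.18, 0.24, 0.34 and 0.02 at the 4 ages. The calls in A and in E then become 14 and 7 at 0 hpf, 11 and 9 at 1 hpf, 19 and 8 at 1 dpf, and 20 and 8 at 3 dpf. No gene called under TMM turned its direction under library-size scaling or in DESeq2.

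**Figure D2:**
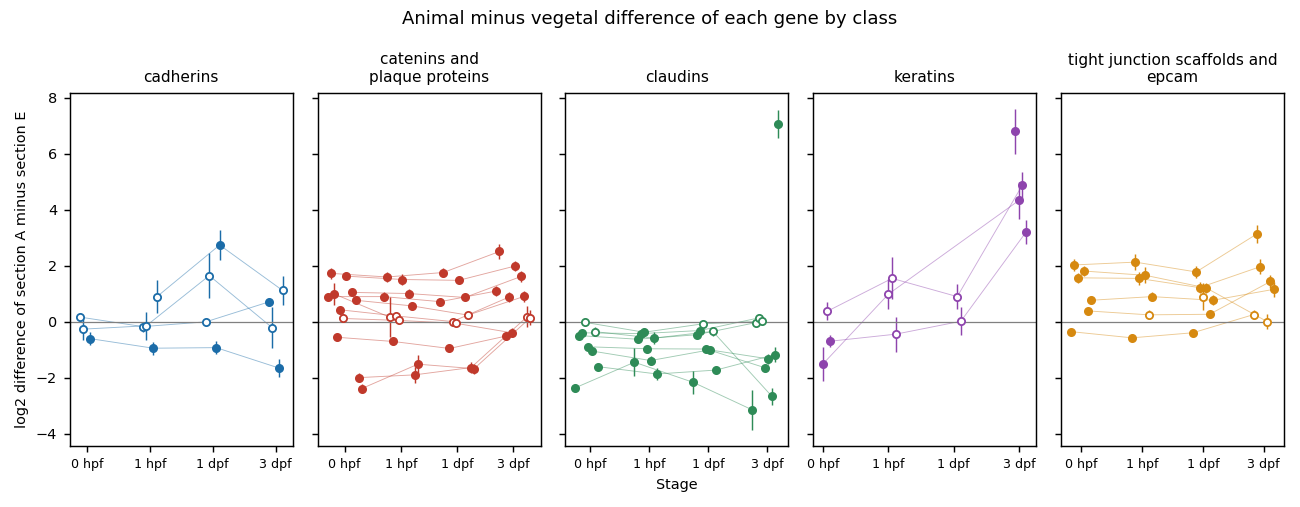
Log2 difference of section A minus section E (vertical axis) at 4 ages for each gene with more than 3 counts at both poles, by class. Points are edgeR estimates with standard errors, filled where the adjusted p was under 0.05; lines join the same gene. At 0 hpf and 1 hpf the filled claudin points lie below 0, cldne is at 7.05 at 3 dpf, and the keratins plotted at 3 dpf lie between 3.2 and 6.8.

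The change of position itself was tested as the difference of the A minus E value between successive ages. Between 1 dpf and 3 dpf it was called for 20 of 39 genes, 17 of them toward A and 3 toward E, where 43.9% of all genes were called, 22.8% toward A and 21.2% toward E. The median change of the 39 genes was 0.57, beside 0.04 over all genes. With library-size scaling the median of all genes moves to -0.36 and the split becomes 8 toward A and 7 toward E. The calls that are then lost are those of cdh1, ctnna1 LOC110504468, ctnnd1 LOC110488843, dspa, both jupb, both cldn7a and epcam, at adjusted p between 0.119 and 0.727. No gene of the 39 was called between 0 hpf and 1 hpf or between 1 hpf and 1 dpf by edgeR, where 0.192% and 0.00426% of all genes were called. At an unadjusted p under 0.05 there were 3 and 0 of the 39, and DESeq2 called none in either step.

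**Figure D3:**
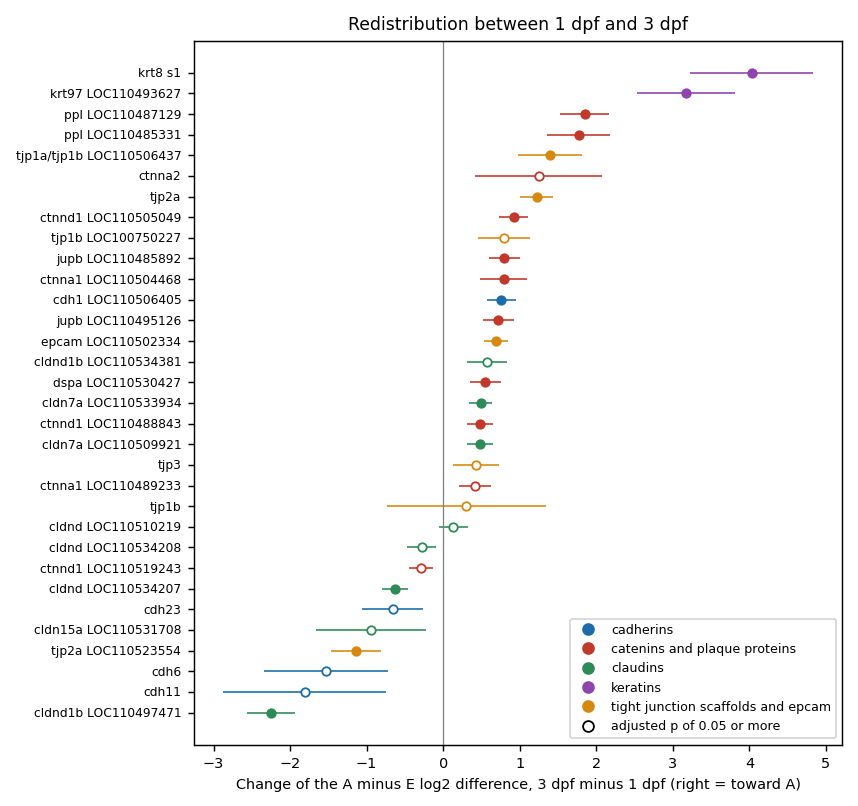
Change of the A minus E log2 difference from 1 dpf to 3 dpf (horizontal axis, bars are standard errors) for the 32 genes with more than 3 counts at both poles of both ages. Filled points had an adjusted p under 0.05; krt8 lies farthest toward A at 4.03 and cldnd1b LOC110497471 farthest toward E at -2.25.

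Summed levels were taken as counts added over the 5 sections of a replicate. Each section entered with the same mass of RNA, so a sum is not the level of a whole egg or embryo. Between 0 hpf and 1 hpf 2 of 39 genes were called, dspa upward and krt8 downward, where 3.48% of all genes were called (2.21% rose and 1.27% fell). Between 1 hpf and 1 dpf edgeR called none of the 39 and none of all genes, with 2 of the 39 and 679 of all genes at an unadjusted p under 0.05, and DESeq2 called none of the 39. Between 1 dpf and 3 dpf 5 were called. The genes that rose were cldnf, krt5 LOC110528490, krt8 and krt97, the gene that fell was tjp2a LOC110523554, and 11.2% of all genes were called (8.06% rose and 3.15% fell). The sums of cldnf and krt5 LOC110528490 passed the filter through 3 dpf alone, so their calls are no support for a rise. Summing weights the sections by their depth.

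E-cadherin, encoded by cdh1 LOC110506405, was present in every section at every age. At 1 dpf section A held 235, 249 and 248 CPM and section E 278, 247 and 233 CPM. The poles overlapped, and the difference was -0.00 (log2, SE 0.1, edgeR adjusted p = 0.98), but 0.3 with an adjusted p of 0.0174 under library-size scaling. At 3 dpf section A held 308, 385 and 437 CPM, section B 172, 153 and 217 CPM, and section E 236, 226 and 220 CPM. Every section A library was then above every other section of that age, A exceeded E by 0.71 (SE 0.15, adjusted p = 0.000531), and B held less than E in each replicate. The A minus E difference grew by 0.76 from 1 dpf to 3 dpf (SE 0.19, adjusted p = 0.00144). The summed level was 235 ± 7.74 CPM at 1 dpf and 233 ± 20.2 CPM at 3 dpf (SD, n = 3 each), a difference of -0.02 that did not pass the test (adjusted p = 0.963).

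N-cadherin, encoded by cdh2, a cadherin of neural and mesodermal cells, had 3 counts in 15 libraries at 0 hpf and 3 counts in 10 libraries at 1 hpf. At 1 dpf section A held 2.7, 2.75 and 0 CPM, and section E none in any replicate, so A was at least 7.79-fold higher against a floor of 3 counts over the group (edgeR adjusted p = 0.00203; DESeq2 0.257). It passed the filter through sections A and B, so this call is no support for a difference. At 3 dpf section A held 9.88, 8.19 and 26.8 CPM, section B 16, 19.1 and 4.63 CPM, and section E 0, 0.525 and 0 CPM. The 2 most animal sections thus held nearly all its counts, with B above A in replicates 1 and 2 and A above B in replicate 3. Its summed level was 0.784 ± 0.683 CPM at 1 dpf and 6.78 ± 1.03 CPM at 3 dpf, which did not pass the test (adjusted p = 0.106), and replicate 3 at 1 dpf had no count in any section.

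Of the other cadherins, the type II cadherin cdh6 was higher in B than in A in replicates 1 and 2 at 3 dpf, and higher in A in replicate 3. Section B held 8.99, 24.9 and 4.49 CPM, section A 4.31, 5.91 and 6 CPM, and sections C to E between 0 and 3.68 CPM. Its distribution over the 5 sections was uneven (adjusted p = 0.000101), although B and A overlapped and A minus E was 1.12 (SE 0.51, adjusted p = 0.0567). At 1 dpf it was higher in A, at 4.97, 4.29 and 0.673 CPM against 0.79, 0.28 and 0.349 CPM in E (2.74, SE 0.53, adjusted p = 0.000265), although replicate 3 of A lay below replicate 1 of E. It passed the 1 dpf filter through sections A and B, so this call is no support for a difference. Its summed level of 1.74 ± 1.11 CPM at 1 dpf and 5.39 ± 2.79 CPM at 3 dpf did not differ in the test (adjusted p = 0.234), but did with the replicate number as a block (1.86, adjusted p = 0.0355). In cdh23, an atypical cadherin known from the tip links of hair cells, E exceeded A at each age: at 3 dpf section A held 5.57, 3.64 and 4.28 CPM and section E 15, 13.4 and 15.7 CPM, without overlap (-1.65, SE 0.32, adjusted p = 0.000196). At 0 hpf that difference was -0.6 (adjusted p = 0.0308), with adjusted p between 0.0518 and 0.0968 without any 1 of the 3 replicates, and at 1 hpf it was -0.94 (adjusted p = 0.00546; 0.102 and 0.107 without replicate 1 or 3). The type II cadherin cdh11 passed no pole test, and its level followed single replicates: at 0 hpf replicate 2 held 9.46 to 15.3 CPM over its sections, and the other replicates at most 0.354 CPM.

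Both copies of ctnna1, alpha-catenin, which links the cadherin complex to actin, were higher at the animal pole at all 4 ages. In LOC110504468 section A held 97.1, 82.8 and 119 CPM at 0 hpf and section E 33.1, 34.6 and 22.5 CPM (1.73, SE 0.19, adjusted p = 9.85e-07). At 3 dpf section A held 135, 117 and 125 CPM and section E 20.3, 27.6 and 16.2 CPM (2.51, SE 0.26, adjusted p = 3.07e-07). The poles were far apart at both ages, and sections A and B, close together at 1 dpf (71.8 to 78.4 and 67.4 to 75 CPM), separated at 3 dpf, when B held 54.1, 37.6 and 69.8 CPM. The change from 1 dpf to 3 dpf was 0.79 (SE 0.31, adjusted p = 0.0361), a call lost without replicate 1 or 2 of 1 dpf (0.7 and 0.68) or replicate 1 or 3 of 3 dpf (0.65 and 0.58), at adjusted p between 0.126 and 0.155. Copy LOC110489233 differed by 0.9 at 0 hpf (SE 0.13, adjusted p = 1.69e-05) and by 1.1 at 3 dpf (SE 0.18, adjusted p = 5.08e-05). The neural alpha-catenin ctnna2, which the rule for genes described one by one did not select and which is described after its values were seen, stayed at or under 2.59 CPM in every library. At 0 hpf it was higher in A by 1.0 (adjusted p = 0.0339; 0.156 without replicate 2). It passed the 0 hpf filter through sections A and B, so this call is no support for a difference.

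The 3 copies of ctnnd1, p120-catenin, which binds the cadherin tail close to the membrane, had different profiles. Copy LOC110488843 was the vegetal copy. At 1 dpf its sections A held 281, 293 and 305 CPM and its sections E 665, 570 and 523 CPM, without overlap (-0.95, SE 0.11, adjusted p = 1.56e-06). At 3 dpf they held 412, 375 and 456 CPM and 607, 693 and 485 CPM (-0.51, SE 0.15, adjusted p = 0.00606; -0.52 and -0.35 with adjusted p of 0.0583 and 0.158 without replicate 1 or 2). Copy LOC110505049 was higher in A at 0 hpf (0.43, adjusted p = 0.00238; 0.29, adjusted p = 0.0993, without replicate 3) and at 3 dpf. Its sections A held 300, 336 and 305 CPM at 1 dpf, beside 344, 301 and 319 CPM in E, and the poles overlapped (0.01, adjusted p = 0.954). By 3 dpf A held 516, 458 and 550 CPM, above each other section of that age, and E 324, 325 and 195 CPM (0.88, SE 0.19, adjusted p = 0.000656). Copy LOC110519243 was level along the axis at the first 3 ages (0.12, 0.05 and -0.05, none called) and lower in A at 3 dpf by -0.39 (adjusted p = 0.0369, but 0.0574 and 0.217 without replicate 1 or 2). From 1 dpf to 3 dpf LOC110505049 moved toward A by 0.92 (SE 0.19, adjusted p = 0.000153). LOC110488843 moved by 0.48 (adjusted p = 0.0191), and without replicate 1 of 1 dpf or replicate 1 or 3 of 3 dpf by 0.35, 0.46 and 0.22 at adjusted p of 0.146, 0.0645 and 0.336. The difference between copies was not tested, and reads that 2 copies share may have been split between them.

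Desmoplakin, encoded by dspa LOC110530427, the plakin that anchors keratin filaments to the desmosome, rose early and was animal throughout. At 0 hpf sections A held 68.9, 87.4 and 72 CPM and sections E 21.4, 31.2 and 21.9 CPM (1.63, SE 0.15, adjusted p = 8.47e-08). At 1 hpf A held 236 and 247 CPM and E 67.8 and 109 CPM. Each 1 hpf library of A, B, C and D exceeded every 0 hpf library, and the summed level rose from 63.0 ± 1.28 (n = 3) to 165 ± 15.3 CPM (n = 2; log2 change 1.4, SE 0.16, edgeR adjusted p = 0.00246). Between 1 dpf and 3 dpf the sum did not change in the test, at 149 ± 22.7 and 142 ± 27.2 CPM (adjusted p = 0.849). By 3 dpf A held 307, 265 and 298 CPM, B 166, 126 and 176 CPM and E 74.1, 82.2 and 60.9 CPM (A minus E 1.99, SE 0.18, adjusted p = 5.3e-08). Its change of position from 1 dpf was 0.55 (adjusted p = 0.0227), and 0.41, 0.48 and 0.38 at adjusted p of 0.161, 0.107 and 0.154 without replicate 1 of 1 dpf, replicate 1 of 3 dpf or replicate 3 of 3 dpf.

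Plakoglobin, encoded by 2 copies of jupb and shared by desmosomes and adherens junctions, was higher at the animal pole. Copy LOC110485892 held 79.3, 76.7 and 76.3 CPM in A and 46, 43.1 and 42.5 CPM in E at 1 dpf, and 135, 127 and 148 CPM in A and 45, 55.1 and 33.5 CPM in E at 3 dpf. The 3 dpf sections A lay above all other libraries of the gene, and the poles did not overlap at either age (0.87, adjusted p = 1.31e-06, then 1.62, adjusted p = 2.4e-06; change 0.8, SE 0.2, adjusted p = 0.00133). Copy LOC110495126 differed by 0.91 at 3 dpf (SE 0.19, adjusted p = 0.000482) and by 0.24 at 1 dpf (adjusted p = 0.0534). Its change was 0.72 (SE 0.2, adjusted p = 0.00289), and 0.34 with an adjusted p of 0.0987 without replicate 3 of 3 dpf.

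Envoplakin and periplakin, partner plakins that in mammals join keratin filaments to the cornified envelope, differed in timing. Envoplakin, evpla LOC110493674, had 20 counts in all at 0 hpf, none in the 10 libraries at 1 hpf and 56 at 1 dpf. At 3 dpf sections A held 67.4, 100 and 116 CPM, sections B 12.8, 8.13 and 7.85 CPM, and sections E 0.441, 0.263 and 0 CPM, which is 2 counts over the group. All section A libraries lay above all section B libraries, and B above C, D and E (A against E adjusted p = 3.35e-09). The 3 dpf filter was passed through sections A and B, so this call is no support for a difference. At 1 dpf its counts were mostly in replicate 3, at 0.992 to 2.44 CPM in its 5 sections against at most 0.284 CPM in the other replicates. The summed level of 0.666 ± 1.02 CPM at 1 dpf and 21.1 ± 5.57 CPM at 3 dpf did not pass the test (adjusted p = 0.077), and passed without replicate 3 of 1 dpf (adjusted p = 0.0387). Its change of position from 1 dpf was called (adjusted p = 6.14e-05), and not without that replicate (adjusted p = 0.977).

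Both copies of ppl, periplakin, were vegetal up to 1 dpf. At 3 dpf A exceeded E in replicates 1 and 2 of both copies, while E still exceeded A in replicate 3. Copy LOC110487129 held 10.2, 4.77 and 7.74 CPM in A and 63.8, 20.2 and 39.5 CPM in E at 0 hpf (-2.38, SE 0.17, adjusted p = 4.09e-09). At 1 dpf it held 4.97, 6.52 and 5.83 CPM in A and 17.8, 22.1 and 16.7 CPM in E (-1.67, SE 0.18, adjusted p = 5.08e-07). E exceeded A in each replicate at both ages. At 3 dpf it held 17, 21.4 and 19.7 CPM in A, 11.2, 10.4 and 11.4 CPM in B, and 10.1, 15 and 30 CPM in E, so the poles overlapped (0.15, SE 0.27, adjusted p = 0.636). The change was 1.85 (SE 0.32, adjusted p = 9.66e-06), while the summed level was 14.3 ± 1.38 CPM and 15.4 ± 2.04 CPM (adjusted p = 0.883). Copy LOC110485331 changed by 1.77 (SE 0.41, adjusted p = 0.000621), from -1.63 at 1 dpf to 0.19 at 3 dpf (adjusted p = 0.666). Without replicate 3 of 3 dpf the latter was 0.85 (adjusted p = 0.0155) and the change 2.49. At 3 dpf its replicate 3 held 24.0 CPM in section A and 47.2 to 58.9 CPM in sections C to E. Replicates 1 and 2 held 8.94 to 13.7 CPM in sections C to E.

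**Figure D4:**
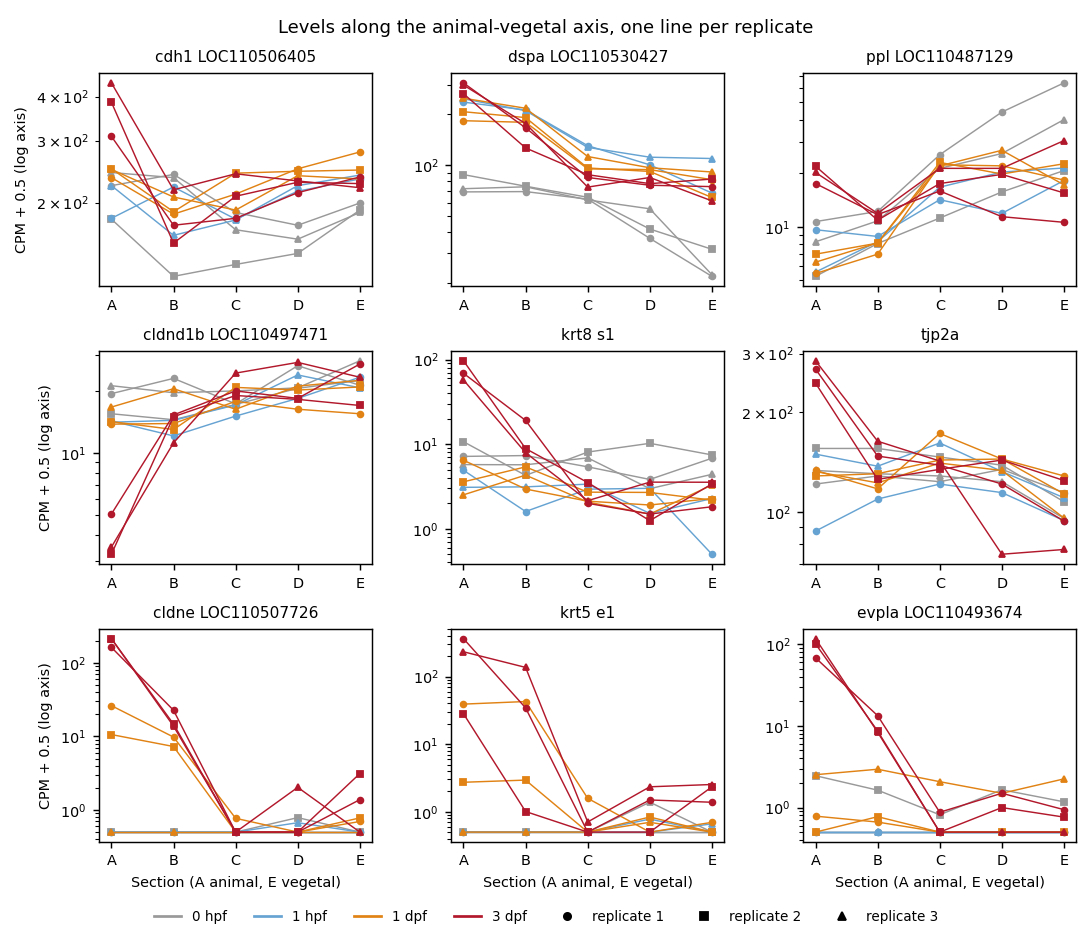
CPM + 0.5 on a log axis along sections A to E, with 1 line per replicate coloured by age, for 9 genes. The 3 dpf lines of cdh1, dspa, krt8, tjp2a, cldne, krt5 e1 and evpla drop from A to B, that of cldnd1b LOC110497471 dips in A, and those of ppl LOC110487129 no longer rise toward E in every replicate.

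Among the tight junction scaffolds, tjp1 (ZO-1) was animal at each age. The gene whose orthologs are tjp1a and tjp1b, LOC110506437, held 43.4, 44.6 and 27 CPM in A and 13.6, 11.8 and 9.06 CPM in E at 1 dpf (1.78, SE 0.22, adjusted p = 2.85e-06). At 3 dpf it held 48.9, 74.6 and 88 CPM in A and 9.7, 8.4 and 6.09 CPM in E (3.14, SE 0.31, adjusted p = 1.94e-07). The poles were apart at both ages, and the difference grew by 1.4 (SE 0.42, adjusted p = 0.00618; 0.98, adjusted p = 0.0724, without replicate 3 of 3 dpf). In tjp1b LOC100750227 the difference was 1.57 at 0 hpf (adjusted p = 6.99e-07) and 1.97 at 3 dpf (adjusted p = 1.04e-05), with a change from 1 dpf of 0.8 that did not pass (adjusted p = 0.0557). The third gene, listed under its own symbol tjp1b, stayed at or under 5.91 CPM. ZO-3, tjp3, held 53.5, 85.9 and 54.4 CPM in A and 39.1, 51.2 and 25.8 CPM in E at 0 hpf. A exceeded E in each replicate there (0.77, adjusted p = 0.000257), and at 3 dpf the difference was 1.16 (SE 0.27, adjusted p = 0.00114; 0.56 without replicate 3, in which E held 15.7 CPM against 53.8 and 42 CPM in the others).

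The 2 copies of tjp2a (ZO-2) moved in opposite directions. The gene listed as tjp2a held 133, 128 and 132 CPM in A and 128, 113 and 95.5 CPM in E at 1 dpf, and 269, 244 and 285 CPM in A and 93.5, 124 and 76.7 CPM in E at 3 dpf. Section A lay within the range of the other sections at 1 dpf and stood above all of them at 3 dpf (1.44, SE 0.22, adjusted p = 1.78e-05; change 1.22, SE 0.21, adjusted p = 1.28e-05). Copy LOC110523554 was animal before: at 0 hpf A held 39.5, 47.1 and 41.3 CPM and E 16.6, 11.2 and 9.84 CPM (1.81, SE 0.19, adjusted p = 3.35e-07). At 3 dpf A held 14.4, 11.8 and 12.8 CPM and E 11.9, 14.4 and 13.2 CPM, and the poles overlapped (0.01, SE 0.26, adjusted p = 0.963). Its difference fell by 1.14 from 1 dpf (SE 0.33, adjusted p = 0.00484). Its summed level fell from 24.3 ± 5.44 to 13.7 ± 1.61 CPM (-0.84, SE 0.19, adjusted p = 0.0188), a call lost without replicate 3 of 1 dpf (-0.66, adjusted p = 0.0622), without replicate 1 or 3 of 3 dpf (-0.76 and -0.82, adjusted p = 0.0846 and 0.0692), and with the sections weighted equally (-0.53, adjusted p = 0.0663).

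Epcam LOC110502334, an epithelial adhesion protein that binds claudin-7, lost a mild vegetal excess. At 1 dpf A held 306, 260 and 334 CPM and E 359, 389 and 475 CPM, and E exceeded A in each replicate (-0.39, SE 0.1, adjusted p = 0.00301). At 3 dpf A held 482, 535 and 485 CPM, B 337, 378 and 343 CPM, and E 382, 388 and 500 CPM (0.26, SE 0.15, adjusted p = 0.136; 0.4, adjusted p = 0.0177, without replicate 3). The change was 0.69 (SE 0.16, adjusted p = 0.000525).

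The claudins, the membrane proteins that seal the tight junction, were more often called in E than in A at each age. At 0 hpf 6 of the 8 that passed were higher in E and none in A, at 1 hpf 8 of 8, at 1 dpf 6 of 9 with 1 higher in A, and at 3 dpf 5 of 10 with 2 higher in A, beside 32.0%, 24.9%, 30.5% and 34.3% of all genes higher in E. With library-size scaling both cldn7a calls were lost at 0 hpf (-0.29 and -0.19, adjusted p = 0.0511 and 0.134) and at 1 dpf (adjusted p = 0.172 and 0.907). At 1 hpf it removed the calls of cldn7a LOC110533934, cldnd LOC110510219 and cldnd1b LOC110497471 (adjusted p = 0.271, 0.398 and 0.142). The steepest of the egg was cldn15a LOC110531708, which at 0 hpf held 5.05, 7.59 and 6.46 CPM in A and 28.3, 41.1 and 31.2 CPM in E, with each replicate rising from A to E (-2.35, SE 0.15, adjusted p = 1.23e-09). At 3 dpf it held 0, 0 and 1.28 CPM in A and 1.76, 0.525 and 11.7 CPM in E (-3.14, SE 0.7, adjusted p = 0.000747). It passed the 3 dpf filter through sections B to E of replicate 3. This call, 1 of the 5 in E, is therefore no support for a difference. Its later levels were highest in replicate 3. At 0 hpf its summed level had been 10.5, 21.4 and 12 CPM in replicates 1, 2 and 3, and at 3 dpf it was 1.17, 1.17 and 6.42 CPM.

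Copies of cldnd and cldnd1b differed in where they lay. Of the cldnd copies, LOC110534207 held 125, 137 and 107 CPM in A and 213, 253 and 224 CPM in E at 0 hpf (-0.89, SE 0.1, adjusted p = 1.44e-06). At 3 dpf it held 36.5, 36.4 and 106 CPM in A and 122, 113 and 317 CPM in E (-1.64, SE 0.15, adjusted p = 9.58e-08). E exceeded A in each replicate, while replicate 3 was above the others in all sections, and the difference moved further toward E from 1 dpf by -0.63 (SE 0.17, adjusted p = 0.00343). Copy LOC110534208 was higher in E at each age, with A minus E of -1.04, -1.38, -1.0 and -1.32 (highest adjusted p = 3.41e-05). Copy LOC110510219 was called at 1 hpf alone, by -0.37 with an adjusted p of 0.0475 that rose to 0.323 and 0.0754 without replicate 1 or 3. Of the claudin domain-containing genes, cldnd1b LOC110497471 fell to low levels at the animal pole. Its sections A held 13.3, 13.7 and 16.2 CPM at 1 dpf, close to 15, 20.4 and 22 CPM in E, and 4.56, 2.73 and 3 CPM at 3 dpf against 26.5, 16.5 and 22.8 CPM in E. All 3 dpf sections A lay below every other library of the gene (-2.65, SE 0.3, adjusted p = 7.54e-07), and the change was -2.25 (SE 0.31, adjusted p = 2.45e-07). Its other copy, LOC110534381, was higher in E at 0 hpf by a log2 difference of -1.6 (adjusted p = 1.32e-08) and at 3 dpf by -1.17 (adjusted p = 0.000821).

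Claudin-7 kept high levels in every section. Copy cldn7a LOC110509921 held 262, 241 and 251 CPM in A and 354, 373 and 343 CPM in E at 1 dpf, without overlap (-0.46, SE 0.1, adjusted p = 0.000656). By 3 dpf A held 345, 363 and 454 CPM and E 352, 383 and 453 CPM, which overlapped (-0.03, SE 0.15, adjusted p = 0.876). The change was 0.48 (adjusted p = 0.0179), and 0.41 to 0.43 at adjusted p between 0.0512 and 0.0847 without replicate 2 of 1 dpf or replicate 1 or 3 of 3 dpf. Copy LOC110533934 changed by 0.49 (adjusted p = 0.00658; 0.32, adjusted p = 0.116, without replicate 2 of 3 dpf).

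The claudins cldne and cldnf, of which the first is a marker of the zebrafish enveloping layer, were the animal exceptions. Each of the 25 libraries of 0 hpf and 1 hpf held at most 0.287 CPM of cldne LOC110507726. At 1 dpf sections A held 25.7, 10.1 and 0 CPM and sections B 9.3, 6.79 and 0 CPM, so replicates 1 and 2 had it and replicate 3 had no count in any section (A against E edgeR adjusted p = 2.52e-06; DESeq2 0.0593). The filter was passed through those 2 sections, so the call describes them and tests nothing more. By 3 dpf A held 162, 213 and 213 CPM, B 22.2, 14.2 and 13.3 CPM, C none, and E 0.882, 2.63 and 0 CPM. A lay above B in each replicate, and B above C, D and E (A minus E 7.05, SE 0.5, adjusted p = 1.78e-08; 8.52 without replicate 2). The 3 dpf filter too was passed through A and B, so this call is no support for a difference. The summed level of 4.32 ± 4.72 CPM at 1 dpf and 43.1 ± 10.4 CPM at 3 dpf did not pass the test (3.3, adjusted p = 0.0835). Without replicate 3 of 1 dpf it did (2.71, adjusted p = 0.0136). For cldnf no count was found at 0 hpf or 1 hpf and 8 counts at 1 dpf. At 3 dpf its sections A held 14.2, 29.1 and 8.99 CPM and its sections B 2.02, 1.27 and 1.26 CPM. Its summed level rose from 0.110 ± 0.107 to 3.62 ± 1.21 CPM (5.01, SE 1.0, adjusted p = 0.022), with adjusted p between 0.055 and 0.0885 without replicate 1 or 2 of 1 dpf or replicate 1 or 2 of 3 dpf. It passed the filter through its 3 dpf sums alone, so this call is no support for a rise.

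All 5 keratins were higher in A than in E at 3 dpf, where 38.1% of all genes were called higher in A. Both krt5 genes and krt79 passed the filter through sections A or B, so their calls had to follow. In krt8 s1 (the suffix is that of the deposited symbol), a keratin of simple epithelia, the egg held 6.67, 10.2 and 5.24 CPM in A and 6.32, 6.97 and 3.9 CPM in E, and the poles overlapped. Its summed level fell from 6.51 ± 1.64 CPM at 0 hpf (n = 3) to 2.2 ± 0.15 CPM at 1 hpf (n = 2; -1.55, SE 0.32, adjusted p = 0.0317), with adjusted p between 0.0613 and 0.195 without replicate 1 or 3 of 0 hpf or either replicate of 1 hpf. It rose again from 2.7 ± 0.399 CPM at 1 dpf to 18.4 ± 5.6 CPM at 3 dpf (2.75, SE 0.28, adjusted p = 0.000583). The highest levels were in section A. At 3 dpf it held 68.4, 96.4 and 57 CPM, B 18.6, 8.38 and 7.43 CPM, and C, D and E between 0.747 and 3.06 CPM (A minus E 4.88, SE 0.45, adjusted p = 8.45e-08; change from 1 dpf 4.03, SE 0.8, adjusted p = 7.29e-05, and 4.68 without replicate 1 of 1 dpf).

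Keratin 5 is a basal epidermal keratin in mammals, and the replicates of krt5 e1 were far apart. At 1 dpf sections A held 38.6, 2.23 and 0 CPM and sections B 42.2, 2.44 and 0 CPM (A against E adjusted p = 1.93e-06; 0.0747 without replicate 1, and 0.0658 in DESeq2). Here too the filter was passed through A and B, and the call had to follow. At 3 dpf A held 363, 27.7 and 232 CPM, B 33.9, 0.508 and 136 CPM, and E 0.882, 1.84 and 2.03 CPM. Replicate 2 held less than the others in A at 3 dpf, and A was the highest section in each replicate (A minus E 6.8, SE 0.8, adjusted p = 1.12e-06; 5.65 and 7.78 without replicate 1 or 2). This call at 3 dpf had to follow from the filter as well. Its summed level was 7.32 ± 11.8 CPM at 1 dpf and 67.5 ± 55.9 CPM at 3 dpf, which did not pass (adjusted p = 0.237) except without replicate 1 of 1 dpf (7.04, adjusted p = 0.0364).

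At 0 hpf 2 of the 3 keratins that passed were higher in E, where 32.0% of all genes were. They were krt79 (-1.49, adjusted p = 0.0429; 0.0761 without replicate 1) and krt97 (-0.69, adjusted p = 0.0122; 0.151 without replicate 3). Of these, krt79 passed the 0 hpf filter through sections C to E, so its call is no support for a difference. For krt5 LOC110528490 4 counts were found in the 15 libraries of 0 hpf, no count was found in the 10 libraries of 1 hpf or the 15 of 1 dpf, and at 3 dpf A held 21.5, 20 and 22.1 CPM and B 1.12, 0.254 and 2.1 CPM. Its summed level at 3 dpf, 4.66 ± 1.86 CPM, was at least 116-fold higher than at 1 dpf against a floor of 3 counts over the group (adjusted p = 0.00231). The filter was passed through the 3 dpf sums alone, so this call is no support for a rise. In krt79 A held 12.2, 10 and 10.3 CPM at 3 dpf and E 0, 0.525 and 1.02 CPM (4.33, SE 0.66, adjusted p = 1.98e-05; 3.7 without replicate 1). The filter was passed through A and B there, so this call is no support for a difference. In krt97 LOC110493627 the poles did not differ at 1 dpf (0.02, SE 0.5, adjusted p = 0.977), and at 3 dpf A held 37, 44.6 and 26.3 CPM and E 3.97, 3.94 and 3.55 CPM (3.2, SE 0.43, adjusted p = 5.73e-06; change 3.17, SE 0.64, adjusted p = 9.26e-05, and 4.08 and 2.56 without replicate 1 or 3 of 1 dpf). Its summed level rose from 2.38 ± 1.14 to 11 ± 2.84 CPM (2.2, SE 0.59, adjusted p = 0.0395), and the adjusted p was between 0.0578 and 0.133 without any 1 of the 6 replicates and 0.0874 with the sections weighted equally. In the egg its sums were 12.8, 3.35 and 6.54 CPM, which overlap the 14.1, 8.54 and 10.4 CPM of 3 dpf.

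**Figure D5:**
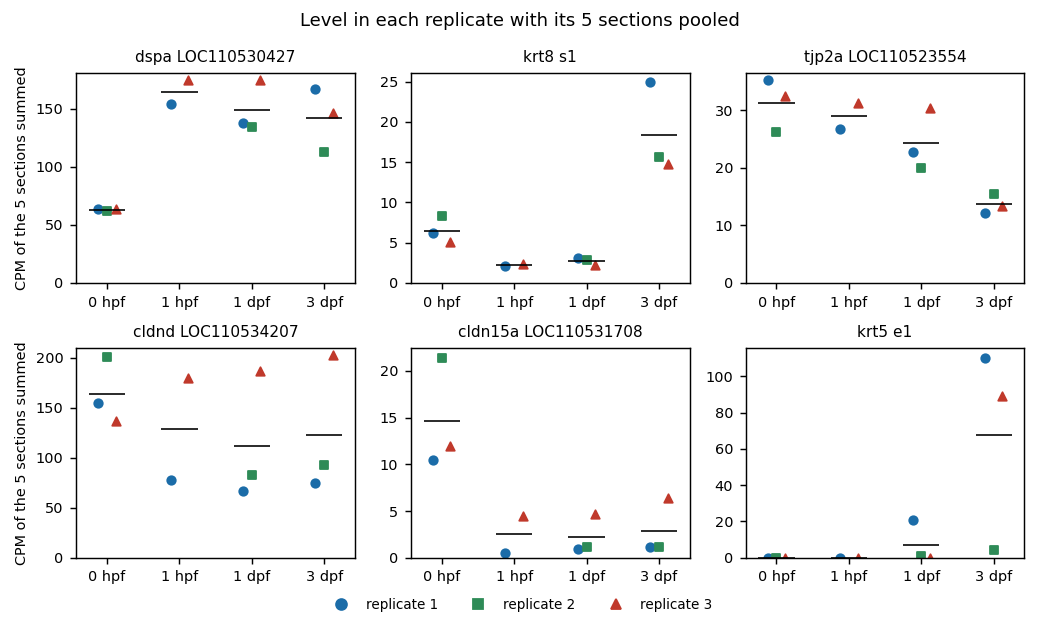
CPM of the 5 sections summed (vertical axis, from 0) in each replicate at 4 ages for 6 genes, with black lines at the means. The sums of dspa rise from 0 hpf to 1 hpf, those of krt8 rise and those of tjp2a LOC110523554 fall from 1 dpf to 3 dpf, and replicate 3 lies above replicate 1 at 1 hpf and above replicates 1 and 2 at 1 dpf and 3 dpf for cldnd LOC110534207 and cldn15a.

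Junction partners outside the rule, from lists of named genes, spread over both poles at 3 dpf, when 38.1% of all genes were called higher in A and 34.3% higher in E. Among 17 adherens partners, 7 favoured A and 6 favoured E, and among 33 tight junction and polarity partners the numbers were 10 and 15. The median A minus E differences were 0.14 and -0.25, beside 0.08 over all genes. Both ctnnb1 copies, encoding beta-catenin, were higher in A (LOC110512888 298 ± 13.8 against 161 ± 8.9 CPM, 0.89, adjusted p = 3.1e-05). Both arvcfb copies, of a p120-catenin relative, were higher in E (LOC110525852 27.3 ± 4.83 against 180 ± 53.3 CPM, -2.67, adjusted p = 1.36e-08), as was cingulin, cgnb, at 84.9 ± 29.6 against 993 ± 162 CPM (-3.53, adjusted p = 7.49e-09). The 6 desmosome partners divided into 3 for each pole. The desmosomal cadherin dsc2l was at 79.0 ± 5.1 CPM in A and 2.21 ± 1.2 CPM in E (5.0, SE 0.4, adjusted p = 2.12e-08). It did not pass the filter at 0 hpf or 1 hpf. At 3 dpf it may have passed only where it was high, so its pole call is no support for a difference. The summed level of dsc2l rose from 2.27 ± 0.744 CPM at 1 dpf to 22.9 ± 7.66 CPM at 3 dpf (3.32, adjusted p = 0.000568). Plakophilin 2, pkp2, was at 24.9 ± 2.36 CPM in A and 141 ± 18.4 CPM in E (-2.49, adjusted p = 3.25e-08). Perp, a desmosome protein, was vegetal at 1 dpf (-1.69, adjusted p = 8.84e-05) and animal at 3 dpf (2.56, adjusted p = 4.81e-07). Of 14 other cadherin superfamily genes, such as fat, celsr and protocadherin genes, 11 were higher in A at 3 dpf and none in E, beside the 38.1% and 34.3% of all genes, and 9 of 13 were higher in A at 0 hpf, beside 32.0% (medians 2.44 and 1.11). Among the 11 is pcdh19, which did not pass the filter at the earlier ages. At 3 dpf it passed where it was high (8.82 ± 1.21 CPM in A, none in E), so its call is no support for a difference.

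Markers of embryonic layers were followed beside these genes. Of 19 enveloping layer regulators and other epithelial genes, 15 favoured A and 3 favoured E at 3 dpf, with a median of 1.79. The shares of all genes were 38.1% and 34.3%. By 1 dpf 14 of 18 already favoured A and none favoured E (median 1.32), beside 32.9% and 30.5%. In the egg, at 0 hpf, 9 of 15 favoured A and 3 favoured E, beside 32.0% for each pole. The later counts thus include genes that did not pass the filter in the egg. These counts and medians describe the genes that passed and support nothing beyond them. A change of position from 1 dpf to 3 dpf was called for 8 toward A and 3 toward E, beside 22.8% and 21.2%. At 3 dpf the gene listed as grhl3, a regulator of the zebrafish enveloping layer, was at 112 ± 8.78 CPM in A and 2.3 ± 1.33 CPM in E (5.54, SE 0.39, adjusted p = 6.54e-09). It is an example of those higher in A. Its other copy, LOC110498393, and the 3 genes higher in E are not described here. The gene grhl3 may have passed the filter only where it was high, so its call is no support for a difference. The list summed to 723 to 929 CPM in section A at 1 dpf and to 1015 to 1112 CPM at 3 dpf. In section E it summed to 386 to 399 CPM and to 357 to 394 CPM. Of 8 yolk syncytial layer genes, 7 were higher in A at 3 dpf and 1 in E, beside 38.1% and 34.3% of all genes. The median was 4.97 (4.7 with genes without a count at a pole set at their bound). Of them hnf4a, both sox32 genes and apoa-i-1 did not pass the filter at 1 dpf. At 3 dpf these passed where they were high, so their calls are no support for a difference. The change of position from 1 dpf was called for 2 of the 8 toward A and none toward E, beside 22.8% and 21.2%. The 8 genes summed to 61.9 to 90.6 CPM in A at 1 dpf. At 3 dpf they summed to 307 to 553 CPM in A, 271 to 926 CPM in B and 124 to 142 CPM in E, so B reached above A. Of the 17 egg and oocyte genes, 14 favoured E and 1 favoured A at 3 dpf, beside 34.3% and 38.1% of all genes. Their change of position from 1 dpf was called for 10 toward E and none toward A, beside 21.2% and 22.8%. Of genes named for blood, sperm and testis, and liver, 2, 2 and 1 genes could be matched, and the follicle cell list matched none. At 3 dpf the blood genes, 2 copies of epb41b, summed to 45 to 62.3 CPM in A and 4.57 to 6.18 CPM in E, the sperm and testis genes to 6.37 to 8.86 CPM in A and 23.4 to 29.1 CPM in E, and the liver gene to 10.9 to 27.8 CPM in A and 7.06 to 7.35 CPM in E. The part of these lists in the values of the junction and keratin genes was not tested.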

How the data were processed

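Strand-specific RNA-seq libraries were made after ribosomal RNA depletion from 30 ng of total RNA of each section, per the labels' protocols. The authors deposited whole-number read counts per gene. The submitters' processing notes name fastp 0.23.4, STAR 2.7.11, HTSeq 2.0.4 and DESeq2. For neither the genome build nor HTSeq's strand option is a value stated in these sources, so overlapping and antisense genes cannot be told apart and no coordinates are given. Of 60 labelled libraries the count table holds 55, and the other 5, of 1 hpf replicate 2, were not analysed here. A deposited table of values already divided by size factors was not used.

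In R 4.3.3, edgeR 4.0.16 was run on the deposited counts with TMM scaling, filterByExpr at a minimum count of 10, the quasi-likelihood F-test and Benjamini-Hochberg adjustment over all genes, with a threshold of 0.05. Within an age, sections were fitted with the replicate as a block, since the 5 sections of a replicate come from the same material. Changes of position were the differences of A minus E between ages with 11 replicate terms. Levels of whole replicates were counts summed over 5 sections, fitted by age without a block. SE is the log2 difference divided by the square root of F. Scripts were tested on simulated data. Alternatives were DESeq2 1.42.0, its size factors, library-size scaling, no filter, other block settings, sections weighted equally (limma 3.58.1) and leaving out each replicate.

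The deviations of same-numbered replicates from their age means correlated at 0.56, 0.44 and 0.66 between 1 dpf and 3 dpf, over 23460 genes. Each was over 0.1. The alternative fit of levels with a replicate block had a term for each replicate number over all 4 ages. It thus treated same-numbered replicates as paired at 0 hpf too. The reported tests of level have no block and do not use this pairing. Different numbers correlated as highly for replicate 2 of 1 dpf with replicate 1 of 3 dpf (0.46), so these values set replicate 3 apart and do not tell replicates 1 and 2 from each other. Between 0 hpf and the later ages the correlations were between -0.01 and 0.09. Within an age, the sections of a replicate had median correlations of 0.67, 0.72, 0.54 and 0.36 at the 4 ages. No 2 libraries agreed within sampling noise (chi-square per degree of freedom between 2.57 and 18.73 over 50 pairs).

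The members and lists were chosen with earlier results of these data known. Named genes were, within each class and comparison, up to 3 called genes in each direction with the largest log2 difference and the same direction in every replicate, together with a set list of core symbols and the 3 most abundant genes of each class. This rule names 38 of the 39 genes.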

Additional observations from a re-analysis of the deposited data

Results flagged for a closer look

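For 20 genes the difference of section A minus section E at 3 dpf differed from that at 1 dpf in the test of the difference itself (edgeR, adjusted p under 0.05 over all genes). All values are changes on the log2 scale, positive toward A. Toward A, the adherens genes changed by 0.76 (cdh1), 0.79 (ctnna1 LOC110504468), 0.48 (ctnnd1 LOC110488843) and 0.92 (ctnnd1 LOC110505049). The plaque genes changed by 0.55 (dspa), 0.8 (jupb LOC110485892), 0.72 (jupb LOC110495126), 1.77 (ppl LOC110485331), 1.85 (ppl LOC110487129) and 7.94 (evpla). The value of evpla is a fitted one with 2 counts in section E at 3 dpf, and is no measure of size. The tight junction genes changed by 0.48 (cldn7a LOC110509921), 0.49 (cldn7a LOC110533934), 0.69 (epcam), 1.4 (tjp1a/tjp1b LOC110506437) and 1.22 (tjp2a), and the keratins by 4.03 (krt8 s1) and 3.17 (krt97). Toward E, cldnd LOC110534207 changed by -0.63, cldnd1b LOC110497471 by -2.25 and tjp2a LOC110523554 by -1.14.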

How the results depend on the processing

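The counts of genes called between sections A and E at 0 hpf, 1 dpf and 3 dpf, and of changes of position between 1 dpf and 3 dpf, stayed within 1.5 times of the reported count under every alternative run. These counts take both directions together. The split by direction depended on the scaling. Under library-size scaling, fewer changes of position from 1 dpf to 3 dpf were called toward A and more toward E. Without the replicate block the genes unevenly spread over the 5 sections fell from 20 to 7 at 1 hpf and from 26 to 16 at 1 dpf, and those different between A and E at 1 hpf from 22 to 11. Leaving out 1 replicate gave 12 genes unevenly spread at 1 hpf, 17 to 26 at 1 dpf, and 14 to 19 genes different between A and E at 1 hpf. At 1 hpf this leaves 1 library per section, which is assumed to vary like the other ages. Changed levels between 0 hpf and 1 hpf numbered 2, and 7 with the replicate block, 5 in DESeq2 and 1 to 6 without 1 replicate, although 0 hpf numbers did not pair with the later ones. Between 1 hpf and 1 dpf none was called, and 0 to 1 without 1 replicate (cldne, without replicate 3 of 1 dpf). Between 1 dpf and 3 dpf 5 were called, and 2 to 5 without 1 replicate. The replicate block, which treated same-numbered replicates as paired over all ages, 0 hpf included, changed the call of cdh6 in level between 1 dpf and 3 dpf. It changed no other call of that step. Library-size scaling turned cdh1 at 1 dpf from -0.00 to 0.3. The causes were not tested. Levels under the limit of 3 counts of a library could not be told from 0.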
